A study of Mus musculus with 12 samples.

Results

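Drosha, Dgcr8, Ago2, Ago4, Tnrc6c and Prkra are 6 genes of the machinery that makes microRNAs and lets them act. They were selected on the presence of entries: each has at least 1 by name in the list of mRNAs pulled down with Mirlet7d, in the list of promoter-associated noncoding RNAs (ncRNAs) of the same pull-down, or among the genes nearest to Mirlet7d ChIRP-seq peaks. Together they hold 6 of the 8682 entries of those 3 tables, 1 entry per gene, and the 3 tables name 5714 genes in all. Being listed is therefore what selected the genes and is not a result. Beyond the cut-offs of the lists, the rule did not use in which table they are listed or how strongly. Nor did it use what lies beside the entries or whether the names fit the positions. The genes were, however, chosen with earlier results of these data known.

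The material is MLE-12, an established mouse lung epithelial cell line. For the pull-down, cells were transfected with 25 nM biotinylated Mirlet7d, harvested after 48 h, and the RNA held on streptavidin beads was sequenced next to the input RNA. In ChIRP-seq, a method that fishes chromatin out with biotinylated probes against an RNA, 150 pmol of probes against mature Mirlet7d were incubated with chromatin for 4 h, and an input belongs to that experiment too. The series has 12 libraries, each alone in its group, of which the pull-down and the ChIRP-seq are covered here through their deposited tables. No capture with an unrelated microRNA or probe is part of these tables, so capture by Mirlet7d and capture on the beads without it cannot be told apart. The transfected Mirlet7d adds to what the cells make. Each culture was lysed as a whole, so more RNA per cell and more cells with the RNA cannot be told apart. The lists hold selected candidates only, and the identity of the line could not be checked on marker levels here.

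A microRNA is cut out of a long nuclear transcript by the Microprocessor, which joins the RNase III enzyme Drosha to the double-stranded RNA-binding protein Dgcr8. The resulting hairpin is exported and cut again by Dicer, which works with double-stranded RNA-binding partners, one of them the Prkra product, also called PACT. One strand is loaded into an Argonaute protein, and Argonautes bring in TNRC6 scaffold proteins, which recruit the deadenylases that shorten the tail of a target mRNA. Let-7 is among the microRNA families most widely shared among animals, and in vertebrates LIN28 proteins block its maturation.

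The sequences below are those the captures and searches turn on. Both mature arms of let-7d are shown because the arm that was biotinylated or probed is not given in the sources used here, and capitals mark the seed, bases 2 to 8, which guides target recognition. Both are RefSeq sequences of mouse assembly GRCm38.p6, from the minus strand of chromosome 13, at chr13:48536078-48536099 for the 5p arm and chr13:48536024-48536045 for the 3p arm.
mmu-let-7d-5p: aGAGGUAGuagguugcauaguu
mmu-let-7d-3p: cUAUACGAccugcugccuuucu

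Promoter windows, 250 bases before to 50 bases after the start site, were found in the RefSeq table of the same assembly for 5 of the 6 genes, Ago2 having no entry. Those of Ago4, Drosha and Tnrc6c are printed. The Ago4 window is shown because its ChIRP-seq peak was annotated to the promoter, and the Drosha window because a pulled-down ncRNA began just past its start. In both, capitals mark the 50 bases from the start site on. By the deposited distances the Ago4 peak ran from position -822 to position -190, so most of it lies outside the printed window. In the Tnrc6c window capitals mark a match to seed bases 2 to 7 of the 5p arm. Their positions are chr4:126533409-126533708 on the minus strand for Ago4, chr15:12824565-12824864 on the plus strand for Drosha and chr11:117654039-117654338 on the plus strand for Tnrc6c.
Ago4 promoter: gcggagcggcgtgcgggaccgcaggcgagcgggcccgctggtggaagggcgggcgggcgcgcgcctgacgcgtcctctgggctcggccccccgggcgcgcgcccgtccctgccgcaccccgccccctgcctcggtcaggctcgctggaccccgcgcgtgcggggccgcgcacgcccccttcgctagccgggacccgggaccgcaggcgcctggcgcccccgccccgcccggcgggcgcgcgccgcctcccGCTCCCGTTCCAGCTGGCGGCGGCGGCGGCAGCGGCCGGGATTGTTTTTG
Drosha promoter: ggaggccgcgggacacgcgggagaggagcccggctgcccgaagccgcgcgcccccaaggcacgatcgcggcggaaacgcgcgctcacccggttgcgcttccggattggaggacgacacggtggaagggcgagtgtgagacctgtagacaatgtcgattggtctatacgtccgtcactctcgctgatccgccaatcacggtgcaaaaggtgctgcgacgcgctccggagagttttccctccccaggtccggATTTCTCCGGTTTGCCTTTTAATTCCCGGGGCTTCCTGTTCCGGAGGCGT
Tnrc6c promoter: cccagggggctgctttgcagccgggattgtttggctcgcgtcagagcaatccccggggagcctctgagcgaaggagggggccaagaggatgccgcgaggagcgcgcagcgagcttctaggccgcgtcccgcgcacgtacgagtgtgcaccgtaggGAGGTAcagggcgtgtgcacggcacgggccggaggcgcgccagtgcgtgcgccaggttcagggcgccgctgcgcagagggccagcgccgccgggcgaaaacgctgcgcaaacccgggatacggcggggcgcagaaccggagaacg

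All 5 windows were richer in G and C than most promoters of the table, whose median was 52.7% over 32851 windows. The Ago4 window held 83.3% G and C and 54 CG steps, against a median of 7 CG steps, and 99.7% of windows were lower in G and C. Dgcr8 reached 74.3% with 43 CG steps, Tnrc6c 71.3% with 40, Prkra 67.3% with 16 and Drosha 64.3% with 37. The 7 bases of the 5p seed, GAGGTAG or CTACCTC on the other strand, occurred in 0 of the 5 windows and in 3.85% of all windows. With the 6 bases GAGGTA or TACCTC the Tnrc6c window matched, 95 bases before the start site, and 10% of all windows did. The letters on the printed Tnrc6c strand are those of the seed itself and not its complement. The seed of the 3p arm was not searched for in any window. The printed Drosha window holds TATACG, the first 6 of the 7 bases of that 3p seed, so Tnrc6c is the only match for the 5p arm alone. How often other windows hold these letters was not counted. A match is a description of letters and not of binding.

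The 6 genes were spread over the 3 tables, and no gene of the 6 was named in more than 1 of them. Of all genes with a curated RefSeq transcript, the 3 tables named 1506, 1616 and 3173, and any of them 5681. Most listed genes were therefore also named in only 1 table, and nothing is read from the lack of overlap. In the mRNA list 1 of the 6 was present, Prkra, where 5.74% of the 26220 genes with a curated RefSeq transcript are listed. In the promoter-associated ncRNA list it was also 1, Ago2, against 6.16% of all genes. Peaks lay nearest to 4 of the 6, Drosha, Dgcr8, Ago4 and Tnrc6c, against 12.1% of all genes. The comparison set was not limited to genes active in MLE-12 cells, and since presence chose the genes nothing is read from these shares. Drosha, Dgcr8, Ago2, Ago4 and Tnrc6c were absent from the mRNA list. Ago2 and Prkra had no peak nearest to them, and no peak lay in an annotated transcript of either.

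Drosha, the nuclease of the Microprocessor, carried the highest-scoring of the 4 peaks named for the chosen genes. The peak spanned 1238 bases of chromosome 15, from 12802203 to 12803440 in mm9, in intron 15 of 34 and 48251 bases downstream of the start site. Its deposited score was 43.47, rank 725 of 4286, so that 83.1% of peaks scored lower, while the list had a median score of 34.3 and a lowest score of 30.01. The score is the authors' own and only orders peaks inside this list. Among intronic peaks the entries next to it by score were named for the collagen gene Col15a1, at 43.51, and for Kctd16, at 43.38, which codes for a subunit of GABA-B receptors.

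The Drosha peak stood far from any other. The next peak was 2203656 bases away, against a median gap of 49857 bases between neighbouring peaks in the list. Chromosomes differed in their number of peaks, with 94 on chromosome 15 and 387 on chromosome 16, which holds Dgcr8. A median gap for chromosome 15 alone was not computed, so a trait of the locus and one of the chromosome cannot be told apart. The nearest pulled-down ncRNA lay 37827 bases from it, against a median of 86239 bases for all peaks.

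That ncRNA begins at the 5′ end of Drosha, although the deposited list does not name it so. It appears under 2 identifiers, NONMMUT022810 and NONMMUT022811, with 1 span of 9731 bases, chromosome 15 from 12754645 to 12764376, and with identical values. The span started 74 bases after the start site of Drosha used in the peak annotation and ended 9805 bases after it. Its level was 5.033 RPKM in the pull-down and 1.936 RPKM in the input. RPKM is the read number scaled to the length of the span, introns included, and to the depth of the library. The deposited fold was 2.6, close to the lowest fold of 2.5 that the list admits.

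From the recovered numbers of 733 reads in the pull-down and 182 in the input, the 95% counting interval of this fold ran from 2.06 to 3.31. Such an interval covers counting error between 2 libraries and no replicate error. The promoter-associated list credits both identifiers to 6030458C11Rik, the gene that neighbours Drosha in the RefSeq table. Without strand in the tables, reads of Drosha's own first part and of an ncRNA in the same span cannot be told apart.

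Dgcr8, the RNA-binding partner of Drosha, had its peak close to the start of the gene. The peak covered 673 bases of chromosome 16, from 18288005 to 18288677, in intron 1 of 13 and 920 bases downstream of the start site. With a score of 34.65 it ranked 2029 of 4286, near the median of the list. The intronic peaks beside it in rank, named for the epidermal transcription factor Zfp750 and the developmental transcription factor Sall1, had the same score of 34.65.

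A second peak belongs to Dgcr8 by position and to a neighbour by name. It lay at the transcription end of Dgcr8, chromosome 16 from 18253441 to 18254502, between 34759 and 35820 bases downstream of the Dgcr8 start site. The deposited annotation placed it at the Dgcr8 transcript end but named Trmt2a, which codes for a tRNA methyltransferase, as the nearest gene, at 4995 bases. Its score of 45.91, rank 594, exceeded that of the peak named for Dgcr8.

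The surroundings of Dgcr8 held more entries than those of Drosha, on a chromosome with 387 peaks against 94. Within 100 kb of the Dgcr8 peak lay peaks named for Tango2 with a score of 41.04 and for Ranbp1, a regulator of the transport GTPase Ran, with scores of 34.46 and 31.28. In the pull-down, 4 ncRNAs and 1 mRNA fell in that window, none inside Dgcr8. The mRNA was Tango2, the neighbouring gene, at 0.304 RPKM in the pull-down and 0.047 RPKM in the input, a deposited fold of 6.47. The ncRNA folds ranged from 4.03 for NONMMUT025750 to 43.97 for NONMMUT025757, and NONMMUT025757 had 136 reads in the pull-down and 2 in the input, with a counting interval from 7.62 to 1760. With so few input reads, the size of that fold is loosely bounded. NONMMUT025750 and NONMMUT025757 both lie within the span of the Tango2 entry, so they may share reads with it, which was not tested. The other 2 had folds of 13.61 and of 5.15, the last listed under 4933432I09Rik.

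**Figure D1:**
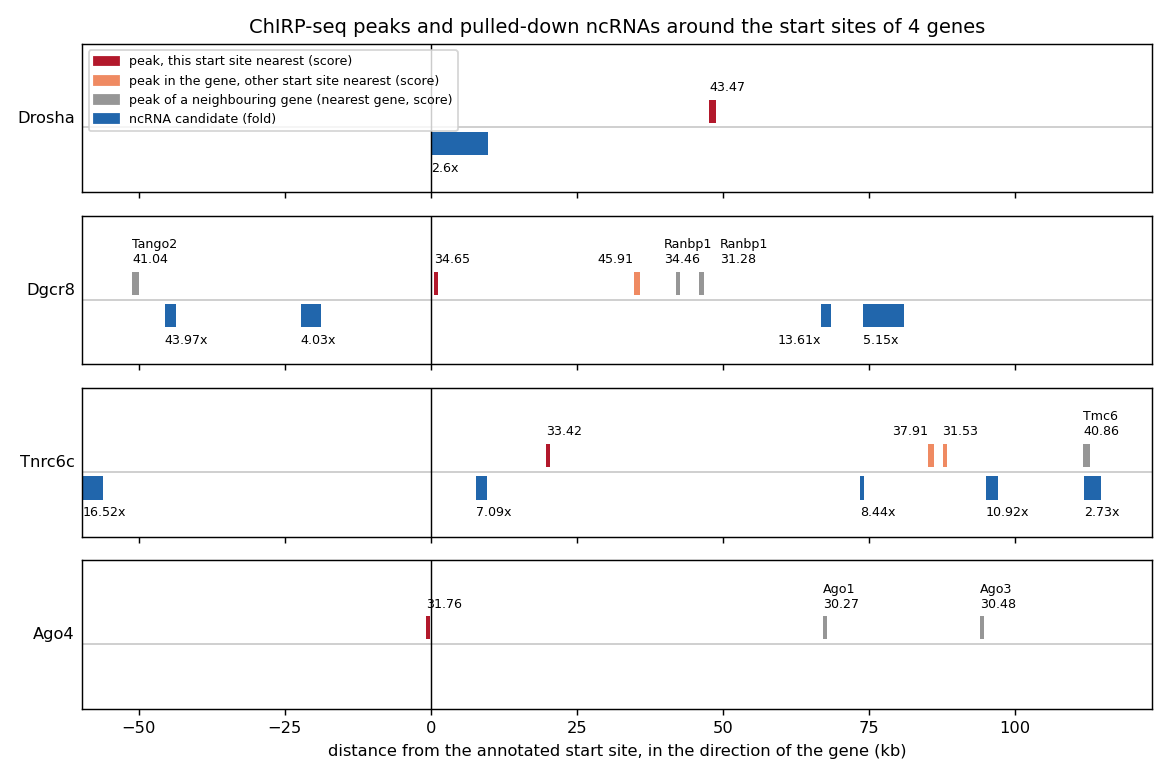
Positions of ChIRP-seq peaks (above each line, with the deposited score) and of pulled-down ncRNA candidates (below, with the deposited fold of pull-down over input) by distance from the annotated start site in kb, along the direction of the gene, for Drosha, Dgcr8, Tnrc6c and Ago4. The 3 orange peaks lie in Dgcr8 or Tnrc6c but were named for another gene, the blue bar of Drosha starts at its start site, and no ncRNA appears beside Ago4. Peaks of neighbouring genes are grey, and spans listed under more than 1 identifier, or nested, carry 1 value.

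Prkra, the Dicer partner, was the sole mRNA of the 6 on the pulled-down list. Its transcript ENSMUST00000002808.6, on chromosome 2 from 76467955 to 76486072, had 0.799 RPKM in the pull-down and 0.255 RPKM in the input. The deposited fold was 3.13, rank 1470 of 1964 and below the list's median fold of 4.93. Every listed mRNA has a fold of at least 2.5, so the list itself fixes the direction, and neither library has a replicate.

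The Prkra entry drew on 608 reads in the pull-down and 110 in the input, against a median of 8 input reads over the 1274 entries whose input reads could be recovered, and its counting interval ran from 2.56 to 3.88. Of the listed mRNAs, 82.4% had a lower input level. Median levels over the mRNA list were 0.138 RPKM in the pull-down and 0.014 RPKM in the input. The entries beside it by fold, Phax, an adaptor for export of small nuclear RNAs, and Tmem55a, a phosphoinositide phosphatase, both had a fold of 3.13.

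Within 100 kb of Prkra, 3 transcripts of the giant muscle gene Ttn were listed with folds of 21, 21 and 22. Their levels were 0.021, 0.021 and 0.022 RPKM in the pull-down and 0.001 RPKM in the input. At 3 decimals, rounding alone allows folds from 13.7 to 43 for the first 2 and from 14.3 to 45 for the third. They stand on levels far below those of Prkra. Of the 2 ncRNAs in the window, NONMMUT038063 had a fold of 3.86 and NONMMUT038060 a fold of 14.53 with 2 input reads.

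Ago2, the Argonaute that can itself cut a target RNA, entered through the name of 1 promoter-associated ncRNA, NONMMUT023880. This RNA spans 14577 bases of chromosome 15, from 73079973 to 73094550 in mm9. It had 0.834 RPKM in the pull-down and 0.043 RPKM in the input, and the deposited fold of 19.4 ranked 269 of 2432 in the promoter-associated list. That list has a median fold of 5.12. The 182 reads in the pull-down and 6 in the input gave a counting interval from 6.49 to 96.7, computed on read pairs, and 6.68% of all ncRNA candidates had a lower input level. The entries next to it by fold were those named for Triobp, an actin-binding protein, at 19.51 and for the RNA acetyltransferase Nat10 at 19.38.

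The transcript accession deposited in the Ago2 row is not one of Ago2. In the RefSeq gene table it belongs to Mir151, a microRNA gene inside Ptk2, and Ptk2, the gene of focal adhesion kinase, is the protein-coding neighbour of Ago2 on one side, Chrac1 being that on the other. Ago2 itself does not span Mir151. By accession, the row is assigned to a microRNA gene beside Ago2, and the pull-down then names 0 of the 6 genes in its promoter-associated list. The position of Mir151 in mm9 was not compared with the span. No other pulled-down RNA and no peak lay within 100 kb of the row.

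Ago4, an Argonaute generally regarded as lacking that cutting activity, had the only promoter peak among the 4. The peak covered 633 bases of chromosome 4, from 126210892 to 126211524, and ran from position -822 to position -190 relative to the start site. Promoters held 9.45% of all peaks and introns 42.6%. The score of 31.76 ranked 3157 of 4286, so that 26.1% of peaks scored lower. Promoter peaks next to it in score were named for Nagpa, an enzyme of lysosomal protein sorting, at 31.8 and for the mitochondrial membrane protein Tmem11 at 31.73.

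Ago4 lies in a row with Ago1 and Ago3, and each of the 3 was named for 1 low-scoring peak. The peak named for Ago1 was in its intron 1 of 18, 2377 bases past the start site, chromosome 4 from 126143004 to 126143572, and scored 30.27, rank 4025. The peak named for Ago3, from 126116279 to 126116757, scored 30.48, rank 3885. The annotation placed it in exon 19 of 19 of Ago1, in the 3′ untranslated region, at position -9732 relative to the Ago3 start site. The 3 peaks lay within 100 kb, and of the 141 peaks on this chromosome 23 had at least 2 others within that distance. All 3 scored below the median of the list, and 2 of them just above its lowest score. Neither an ncRNA nor an mRNA candidate lay within 100 kb of the Ago4 peak, the nearest ncRNA being 158914 bases away.

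Tnrc6c, one of the TNRC6 scaffolds that join Argonaute to the deadenylases, was named for 1 peak and held 3. The named peak covered 520 bases of chromosome 11, from 117535331 to 117535850, in intron 1 of 21 and 19987 bases past the start site. It lay on an RLTR12B element, a long terminal repeat of the ERVK class of endogenous retroviruses, so reads there may also come from other copies of the repeat, which was not tested. The score was 33.42, rank 2474. Its neighbours in rank were peaks named for Tecpr2, a protein tied to autophagy, at 33.42 and for the sodium-proton exchanger Slc9a8 at 33.39.

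The other 2 peaks inside Tnrc6c were both named for Tmc6, the next gene. One lay in exon 10 of 22, from 117600715 to 117601685, with a score of 37.91 and rank 1318. The other lay in intron 11 of 21, from 117603180 to 117603983, with a score of 31.53 and rank 3261. They began 85111 and 87576 bases downstream of the Tnrc6c start site. Thus the highest-scoring peak inside the gene is not among those carrying its name. A peak inside Tmc6 itself, from 117627292 to 117628390, scored 40.86.

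Pulled-down ncRNAs also lay inside Tnrc6c. NONMMUT012925 and NONMMUT012926 overlapped between 7749 and 9600 bases past the start site. Their levels were 2.382 and 2.854 RPKM in the pull-down and 0.336 and 0.402 RPKM in the input, with folds of 7.09 and 7.1. Both had 66 reads in the pull-down and 6 in the input, so the numbers give no sign of separate reads, and their counting interval ran from 2.23 to 36.2. NONMMUT012928 began 73451 bases past the start site and had 8.438 RPKM in the pull-down against an input of exactly 1, a value that 1563 of the 6208 ncRNA candidates share, so its fold of 8.44 carries no interval.

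Another 3 ncRNAs lay within 100 kb of the named peak of Tnrc6c. NONMMUT012922, before the start site, had a fold of 16.52. NONMMUT012930 and NONMMUT012931, past the last peak inside Tnrc6c, had folds of 10.92 and 2.73. The end of Tnrc6c was not located, so whether NONMMUT012930 lies inside the gene is not known. NONMMUT012931 overlapped the peak inside Tmc6. None of the ncRNAs near Tnrc6c was listed as promoter-associated with it. In all, 18 other pulled-down entries lay within 100 kb of the entries of the 6 genes, 6 of them near Tnrc6c, 5 each near Dgcr8 and Prkra, 2 near Drosha and none near Ago2 or Ago4. Within 10 kb there were 0. Some of the 18 share a span, read numbers or a gene, as given above, so they are not separate signals. No such count was made around all entries, so nothing is read from the 18 or the 0.

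**Figure D2:**
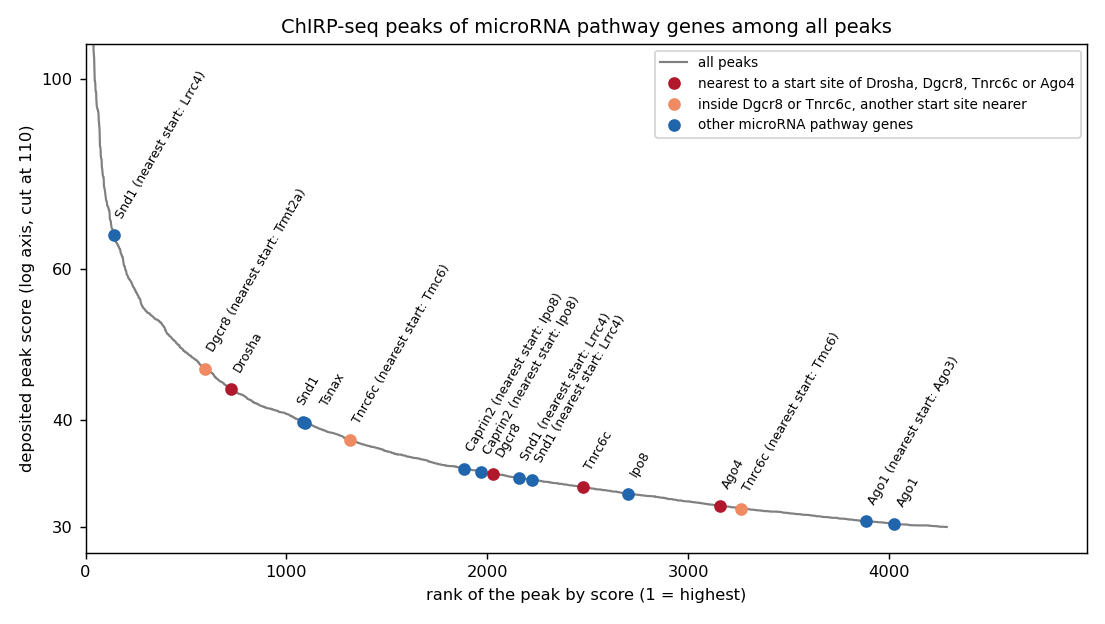
Deposited score of all 4286 ChIRP-seq peaks (log axis, cut at 110) against their rank, with the peaks named for, or lying in, microRNA pathway genes marked. Among the red peaks Drosha stands highest at 43.47 and Ago4 lowest at 31.76, and the orange peaks in Dgcr8 (45.91) and Tnrc6c (37.91) stand above the red peak of the same gene. Labels give the annotated gene and, where it differs, the gene with the nearest start site.

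A list of 44 genes of the microRNA pathway, which includes the 6, gives the surroundings. In the mRNA list 1 of the 44 was present (2.27%), Prkra again, against 5.74% of all genes. The promoter-associated list named 4 (9.09%), Ago2, Ipo8, Pan3 and Cnot7, against 6.16% of all genes. Peaks were nearest to 9 (20.5%), against 12.1% of all genes, namely Drosha, Dgcr8, Ago1, Ago3, Ago4, Tsnax, Ipo8, Snd1 and Tnrc6c. By annotated transcript in place of the nearest start site there were 8 (18.2%), without Ago3, against 7.58% of all genes by that rule. Any of the 3 tables named 13 of the 44, against 21.7% of all genes. Since the 6 were taken from this list for being present, these shares carry no test.

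By step of the pathway, the 3 tables named 7 of 9 genes for Argonautes and their loading and 2 of 9 for nuclear processing, Drosha and Dgcr8. The share of all genes named in any of the 3 tables, 21.7%, stands beside the count of every step. The 7 include Ago2, whose row carries the Mir151 accession, and Ago3, whose peak lies in Ago1. By accession and annotated transcript 5 of the 9 remained, Ago1, Ago4, Tsnax, Ipo8 and Snd1, and 11 of the 44 in all, against 17.8% of all genes by that rule. Ago2 and Ago4 are among the genes chosen for being listed, and no difference between steps was tested. Among Dicer and its partners it was 1 of 3, Prkra, and among TNRC6 and repression genes 3 of 14. The 2 export genes, Xpo5 and Ran, and all 7 genes of let-7 control and turnover, Lin28a, Lin28b, Tut4, Tut7, Dis3l2, Trim71 and Xrn2, were in none of the 3 tables. Dicer1, Tarbp2, Tnrc6a and Tnrc6b were absent too. Absence from a list that starts at a fold of 2.5 or a score of 30.01 does not show that a gene was not bound.

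Among the other pathway genes, Ipo8, Pan3 and Cnot7 were named for promoter-associated ncRNAs. The ncRNA named for Ipo8, an importin that binds Argonautes, had 1.288 RPKM in the pull-down and 0.125 RPKM in the input, a fold of 10.3. It rested on 32 reads in the pull-down and 2 in the input, with an interval from 1.6 to 433. Pan3, a subunit of a deadenylase that TNRC6 recruits, was named for an ncRNA with 3.682 RPKM in the pull-down and 1.076 RPKM in the input. Its fold of 3.42 had an interval from 2.83 to 4.17.

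Cnot7, a deadenylase of the CCR4-NOT complex, was named for 2 overlapping ncRNAs. NONMMUT065365 had 15.473 RPKM in the pull-down and 2.992 RPKM in the input, a fold of 5.17 with an interval from 4.12 to 6.57. NONMMUT065366, which lies within that span, had 25.535 RPKM in the pull-down and 2.499 RPKM in the input, a fold of 10.22 with an interval from 5.88 to 18. The level of NONMMUT065366 in the pull-down was the highest of the ncRNAs described here. Median levels over the promoter-associated list were 3.95 RPKM in the pull-down and 0.917 RPKM in the input.

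**Figure D3:**
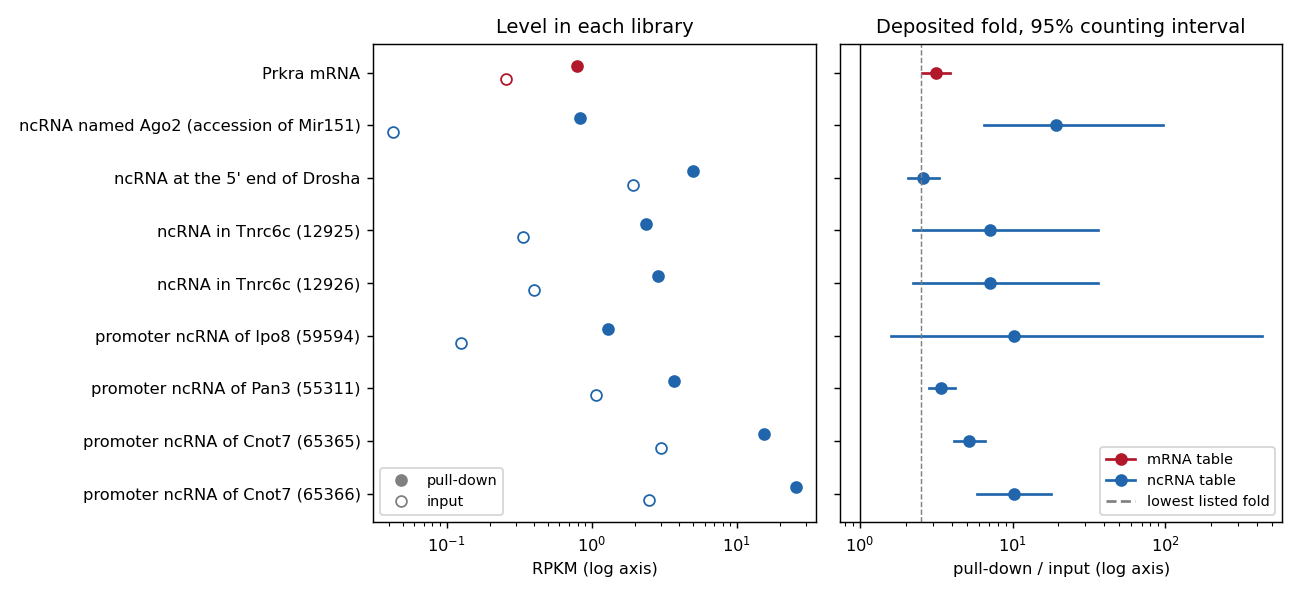
Left, RPKM on a log axis in the pull-down (filled) and in the input (open) for the Prkra mRNA and for ncRNAs named for, or lying in, microRNA pathway genes, 1 library each; levels of the mRNA and of ncRNAs are scaled to different depths. Right, the deposited fold of pull-down over input on a log axis with its 95% counting interval; the dashed line is the lowest listed fold, 2.5. The ncRNA named Ago2 has the highest fold, 19.4, and the lowest input, and the Prkra interval is narrow, from 2.56 to 3.88.

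Peaks of other pathway genes ranged around those of the 6. Snd1, a nuclease found with Argonaute complexes, had a peak in its promoter, at position -60, with a score of 39.8. It also held 3 intronic peaks named for Lrrc4, with scores of 65.75, 34.25 and 34.07, the first being the highest of all pathway peaks at rank 141. The peak scoring 34.25 lay on an MLT1D element, a long terminal repeat. Tsnax, a subunit of a nuclease that in humans and flies clears cleaved passenger strands, had a promoter peak at position -487 with a score of 39.72. Ipo8 was named for 3 peaks, of which those with scores of 35.12 and 34.83 lay in introns of Caprin2 and 1 with a score of 32.83 lay in Ipo8 itself, on a simple repeat. The peak scoring 35.12 lay on an ID_B1 element, a short interspersed repeat, and overlapped a pulled-down ncRNA. Of all peaks, 75.2% scored under 40, and among the peaks named for a pathway gene Drosha alone scored above that.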

How the data were processed

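Per the submitters' processing notes, the genome was mm9, Bowtie2, HOMER, FastQC, SAMtools and bedtools (2.15 for the pull-down) served both assays, Trimmomatic and Picard 1.119 the pull-down, and MACS the ChIRP-seq. The labels' protocols name rRNA depletion and a SMARTer pre-amplification, so copies made by PCR count as reads. The authors deposited RPKM for pull-down and input with 3 decimals, and their ratio, the fold, which differed from the quotient of the RPKM by at most 0.005. The deposited peak score is the authors', and the peaks come from 1 library.

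The 6 genes and the list of 44 were chosen with earlier results of these data known. Named genes are the 6, listed pathway genes, the entries beside each by fold or, within an annotation class, by score (ties in file order), and genes of entries within 100 kb. Where decimals sufficed, RPKM times length gave whole reads. Of the values used to find the step (151 pull-down and 420 input for mRNAs, 3833 pull-down and 4170 input for ncRNAs), 100% lay within 0.15 reads of a whole number, at denominators of 42.02 M reads in the pull-down and 23.85 M in the input for mRNAs, and 14.97 M in the pull-down and 9.662 M in the input for ncRNAs. Input reads could be recovered for 1274 of 1964 mRNAs and 4557 of 6208 ncRNAs. Levels were therefore not compared between these tables. Exact Clopper-Pearson intervals (95%) used single reads for mRNAs and pairs for ncRNAs, of whose input numbers 79.5% were even (52.5% for mRNAs). An odd number counted as the next whole pair. They cover counting error only. With 1 library per group no test was made.

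Names were matched to a RefSeq table of GRCm38.p6, used for names and neighbours, with older Eif2c names for Ago. Names without a unique match were 2 of 1509 among mRNAs, 8 of 1624 among promoter-associated ncRNAs and 16 of 3192 among peaks. Start sites came from the deposited distances, and in 491 of 492 start sites with at least 2 peaks they agreed within 2 bases. Promoter and microRNA sequences are RefSeq's. Python 3.11.15, numpy 2.4.6, pandas 2.3.3, scipy 1.17.1 and matplotlib 3.10.9 were used, and the read recovery and intervals were tested on simulated data. Alternatives were rounding, reads in place of RPKM, 1 added read, pairs or single reads, accession matching, current symbols, windows, thresholds and the motif length. The other libraries of the series were not analysed here.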

Additional observations from a re-analysis of the deposited data

How the results depend on the processing

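Of 25 alternatives, 20 left a fold inside its counting interval, or a count or bound within 1.5 times the reported one, and 5 did not. With single reads the upper bound of the Ago2 interval became 54.1 in place of 96.7, since more units are counted. A fold of at least 10 left 0 of the 44 pathway genes in the mRNA list in place of 1, and a peak score of at least 40 left 1 gene, Drosha, in place of 9. A window of 10 kb in place of 100 kb left 0 of the 18 pulled-down entries near the 6 genes. For the 5p seed, the only one searched, 6 bases in place of 7 gave 1 promoter with a match in place of 0. These follow from how each alternative is built. Rounding, recovered reads and 1 added read kept the fold between 16.9 and 19.6 for the Ago2 row and between 3.11 and 3.14 for Prkra. Matching by accession left 3 pathway genes in the promoter-associated list in place of 4, without Ago2. Peaks within 10 kb of a start site left 6 genes in place of 9, and the gene of the annotated transcript, chosen after seeing the data, gave 8. By accession and annotated transcript, also chosen after seeing the data, 11 pathway genes were in any table in place of 13. No paired analysis was possible because each group has 1 library and the labels carry no replicate numbers. Without replicates or a control capture, neither the spread of a fold nor of a peak score is known. Few input reads limit several folds, with 2 for Ipo8, NONMMUT025757 and NONMMUT038060 and 6 for the Ago2 row and the ncRNAs NONMMUT012925 and NONMMUT012926 in Tnrc6c.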

Other observations

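Peaks named for a gene other than that of their annotated transcript, as in Dgcr8, Tnrc6c, Ago1 and Snd1, were counted over the whole list. How often an ncRNA at the start site of one gene is listed under another, as at Drosha, was not counted. Of 2526 peaks annotated to a transcript, 614 (24.3%) were named for a gene other than that of the transcript. In the promoter-associated ncRNA list, 2383 of 2432 entries had a matched name and a matched accession, and in 41 of them (1.72%), under 29 names, the accession belonged to another gene, as for Ago2 and Mir151.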
